A study of Mus musculus with 9 samples.

Results

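Planar cell polarity is the alignment of cells within the plane of a tissue. The genes described here are 10 members of its core module: Vangl1, Vangl2, Celsr1, Celsr2, Celsr3, Prickle1, Dvl1, Dvl2, Dvl3 and Scrib. They were taken by symbol from a table of read counts with 24016 RefSeq identifiers, in which all 10 were present. In the core module, Celsr cadherins join neighbouring cells, and 2 opposed protein complexes gather on opposite sides of each cell, Frizzled with Dishevelled on one side and Vangl with Prickle on the other. Ligands such as Wnt5a act on the system through Frizzled, Ror and Ryk receptors. In the embryonic gut this signalling is known for its part in elongation of the intestinal tube and in the wiring of the enteric nervous system.

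RNA sequencing covered 3 groups of 3 libraries, all from wild type C57BL/6 mouse embryos at E14.5 (E for embryonic day). The first group was whole intestine treated with cyclopamine, an inhibitor of the Hedgehog signal transducer Smoothened. The other two were intestinal epithelium and intestinal mesenchyme, separated from each other and labelled with no agent. The series design gives 24 h of transwell culture, without saying whether the separated layers were cultured. Whole intestine without the drug was not analysed here. Treated intestine is therefore set beside each layer, and the effect of the drug, the mixture of layers and the handling of the tissue cannot be told apart. The labels do not say whether replicates came from separate embryos or pools, so the p-values below measure only the spread between these libraries. In bulk RNA, fewer cells of a type and less RNA per cell cannot be told apart either.

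The libraries held 9739394 to 26357115 counts. Mesenchyme library 1 stood apart, since ribosomal Rn45s took 59.06% of its counts, against 0.1121% to 1.193% in the other 8, and 3284702 counts remained after Rn45s, Lars2 and Mir6236. Member counts ranged from 62 to 6327. Levels are in CPM, the usual count scaled to library size, with the library size multiplied by its TMM factor. The factors for CPM came from all 9 libraries, while the differences between the layers came from a fit of 6 with its own factors. Folds between the layers therefore differ somewhat from ratios of the printed CPM. The 8 epithelial markers summed to 1571 to 1897 CPM in treated intestine, 4006 to 4359 in epithelium and 123 to 136 in mesenchyme. The 7 mesenchymal markers summed to 3834 to 4272 CPM in treated intestine, 195 to 969 in epithelium (the highest in epithelium 1) and 8529 to 12298 in mesenchyme. The 5 smooth muscle markers summed to 1815 to 2124 CPM in treated intestine, 40.7 to 205 in epithelium and 1829 to 3045 in mesenchyme. The 4 endothelial markers summed to 235 to 347 CPM in treated intestine, 5.63 to 32.0 in epithelium and 440 to 561 in mesenchyme. The 3 mesothelial markers (Wt1, Upk3b and Msln) were highest in treated intestine, with sums of 42.0 to 89.0 CPM, against 17.4 to 20.9 in epithelium and 30.7 to 41.7 in mesenchyme. The 3 leukocyte markers summed to 40.6 to 48.4 CPM in treated intestine, 7.25 to 16.8 in epithelium and 89.8 to 134 in mesenchyme. The part of these mixtures of cells in the members' differences was not tested.

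Vangl1, Vangl2, Celsr1, Celsr3 and Prickle1 were lower in epithelium than in mesenchyme, and Scrib and Dvl1 were higher. Treated intestine was below mesenchyme past the test for all members but Celsr1 and Celsr2, whose means were also lower there. Of the 10 members, 2 were higher in epithelium and 5 were lower at an adjusted p of 0.05 (edgeR's quasi-likelihood test, Benjamini-Hochberg over all genes). The background for these counts is wide, since 29.3% of the 15141 genes tested were higher in epithelium and 33.4% were lower, 62.7% in either direction. In treated intestine, 8 members were lower than in mesenchyme and 0 were higher, where 20.5% of 15699 genes were lower and 20.8% higher. Against epithelium, 3 members were higher in treated intestine and 3 were lower, where 32.1% of genes were higher and 29.8% lower. Counted by whether the 3 values of each group overlapped, 2 members were higher and 5 lower in epithelium than in mesenchyme, against 39.4% and 34.4% of all genes. These 5 include Dvl3, which did not pass the test, and not Celsr1, which did. In treated intestine 0 were higher and 8 lower than in mesenchyme without overlap, against 28.0% and 26.8% of all genes. Against epithelium 3 were higher and 5 lower without overlap, where all genes gave 38.2% and 39.5%. The counts past the test changed when single libraries were left out or trends over transcript features were removed. The 8 lower than in mesenchyme were 2 once trends of level over transcript length and GC content were removed, 4 without cyclopamine 2, and 5 without cyclopamine 1, mesenchyme 1 or mesenchyme 3. The 2 higher in epithelium were 1 without mesenchyme 3 or any 1 of the epithelium libraries, and the 5 lower were 3 without epithelium 2. The median log2 difference of the members was -0.71 between epithelium and mesenchyme, -0.85 between treated intestine and mesenchyme and -0.28 between treated intestine and epithelium. Over all genes tested it was 0.00, -0.02 and -0.02 in those comparisons.

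**Figure D1:**
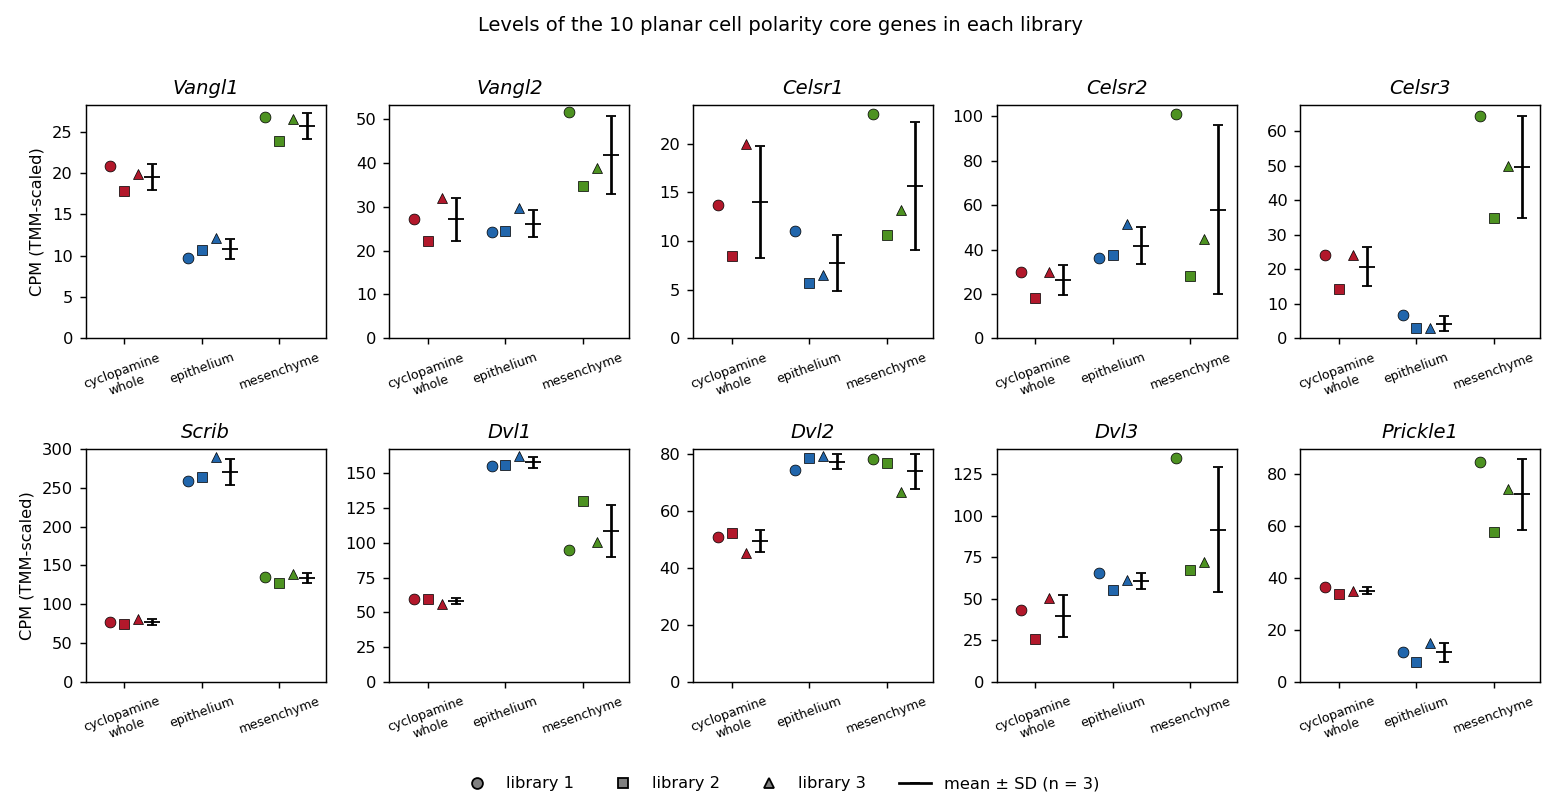
Level of each of the 10 core genes in CPM (y axis, from 0) in the 3 libraries of cyclopamine-treated whole intestine, epithelium and mesenchyme, with symbols for library number and bars for mean ± SD (n = 3). Scrib and Dvl1 are highest in epithelium, Celsr3 and Prickle1 are highest in mesenchyme, and Scrib, Dvl1 and Dvl2 are lowest in treated intestine.

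**Figure D2:**
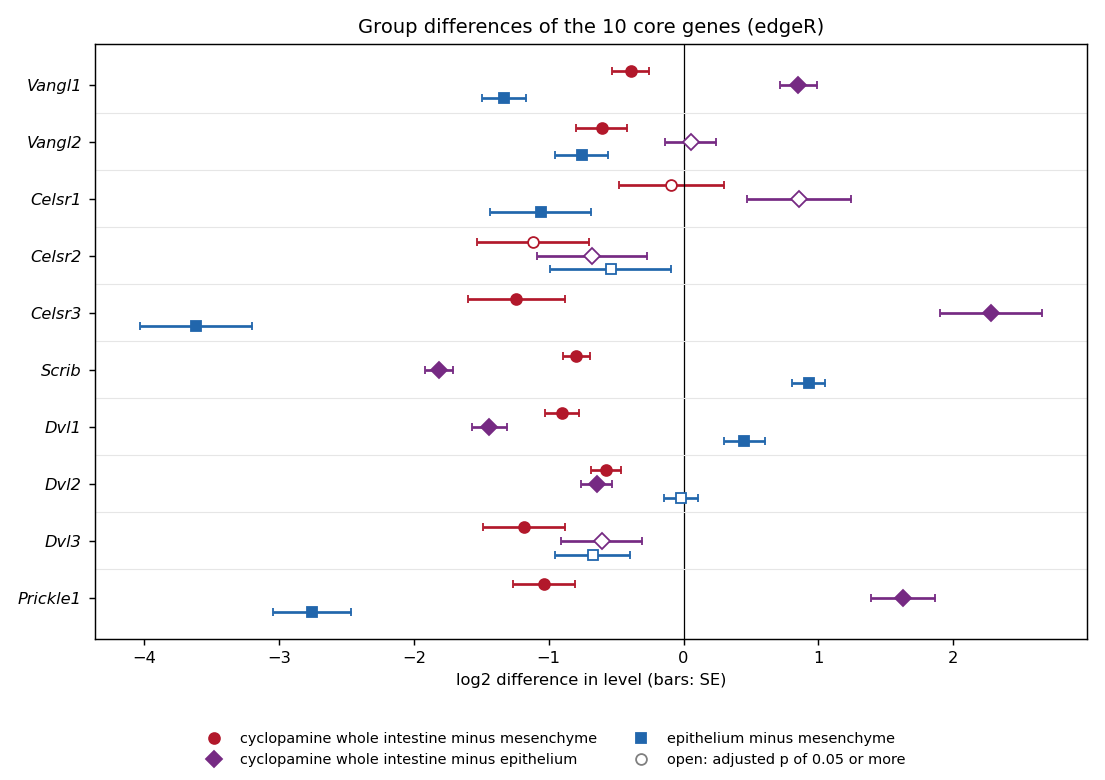
Log2 difference in level with its SE for each core gene in 3 comparisons: treated intestine minus mesenchyme, treated intestine minus epithelium, and epithelium minus mesenchyme. Open symbols mark an adjusted p of 0.05 or more, and the longest distance from 0 is that of Celsr3 between the layers, at -3.62.

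The start-site windows of the members with the 2 largest layer differences and of the member with the smallest are printed so that their letters can be compared. They are the 250 bases before the start in RefSeq on GRCm38.p6, for Celsr3 at chr9:108825795-108826044 (plus strand), Prickle1 at chr15:93595903-93596152 (minus strand) and Dvl2 at chr11:70000342-70000591 (plus strand). Capitals mark the GC box GGGCGG and the E-box CACGTG, read on both strands.
Celsr3: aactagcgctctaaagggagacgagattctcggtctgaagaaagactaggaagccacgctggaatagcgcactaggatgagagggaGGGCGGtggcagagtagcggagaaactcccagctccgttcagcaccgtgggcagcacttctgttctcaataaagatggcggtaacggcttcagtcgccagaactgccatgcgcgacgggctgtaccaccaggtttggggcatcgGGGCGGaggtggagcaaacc
Prickle1: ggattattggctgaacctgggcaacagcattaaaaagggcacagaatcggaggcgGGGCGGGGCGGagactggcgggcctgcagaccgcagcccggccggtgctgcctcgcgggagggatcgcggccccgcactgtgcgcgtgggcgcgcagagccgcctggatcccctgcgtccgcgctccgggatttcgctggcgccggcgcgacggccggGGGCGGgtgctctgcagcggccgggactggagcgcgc
Dvl2: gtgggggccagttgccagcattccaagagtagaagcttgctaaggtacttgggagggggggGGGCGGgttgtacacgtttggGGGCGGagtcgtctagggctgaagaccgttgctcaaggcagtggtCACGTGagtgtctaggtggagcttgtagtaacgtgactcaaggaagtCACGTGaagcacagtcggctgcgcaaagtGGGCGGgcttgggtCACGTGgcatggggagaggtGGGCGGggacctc
Windows were matched for 7 of the 10 members, all but Vangl1, Celsr1 and Scrib, with 8 windows in all because Prickle1 has another at chr15:93519521-93519770 (minus strand), which is not printed and holds 2 copies of the GC box. GGGCGG was in the window of 6 of the 7 members, which is 7 of the 8 windows and all but that of Celsr2, and in 32.7% of all 32851 windows. CACGTG was in that of 1 member, Dvl2, with 3 copies, and in 6.02% of all windows. ACCACCCA, the core of Gli binding sites, was in 0 of the members' windows and in 1.28% of all. The E-box and GC box searched do not overlap each other in these windows, while copies of the GC box can overlap, as in Prickle1. These matches are descriptions of the letters and not binding sites.

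Vangl1 and Vangl2 encode the Van Gogh-like membrane proteins, the partners of Prickle at the cell edge. Vangl1 had 20.8, 17.8 and 19.9 CPM in treated intestine, 9.7, 10.6 and 12.1 CPM in epithelium, and 26.7, 23.8 and 26.5 CPM in mesenchyme. The 3 groups did not overlap, with treated intestine between the layers. Vangl1 was 2.52-fold lower in epithelium than in mesenchyme (log2 difference -1.33 ± 0.16 SE, adjusted p = 0.000372, edgeR). It was 1.80-fold higher in treated intestine than in epithelium (adjusted p = 0.000522, edgeR). Against mesenchyme it was 1.31-fold lower (adjusted p = 0.0441, edgeR), a call that ended under 10 of 14 alternatives, including each removal of a cyclopamine library.

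Vangl2 is the gene mutated in the loop-tail mouse, whose neural tube fails to close. It had 27.2, 22.1 and 31.9 CPM in treated intestine, 24.3, 24.4 and 29.7 CPM in epithelium, and 51.6, 34.6 and 38.9 CPM in mesenchyme. Every mesenchyme library was above every library of the other 2 groups, which overlapped each other. Vangl2 was 1.69-fold lower in epithelium than in mesenchyme (log2 difference -0.75 ± 0.20 SE, adjusted p = 0.0121, edgeR). That call ended without epithelium 2 (adjusted p = 0.0713). It was 1.52-fold lower in treated intestine than in mesenchyme (log2 difference -0.61 ± 0.19 SE, adjusted p = 0.0301, edgeR), a call that ended under 7 of 14 alternatives. Between treated intestine and epithelium the log2 difference was 0.05 ± 0.19 (SE, adjusted p = 0.824, edgeR).

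The Celsr genes encode large seven-pass cadherins that bind their like on the next cell. Celsr3, whose start-site window is printed above, is the member best known for guiding axons, including those of enteric neurons, and had the largest layer difference of the 10. It had 24.1, 14.3 and 24.0 CPM in treated intestine, 6.87, 2.97 and 2.96 CPM in epithelium, and 64.4, 34.9 and 49.9 CPM in mesenchyme. The groups did not overlap. Celsr3 was 12.3-fold lower in epithelium than in mesenchyme (log2 difference -3.62 ± 0.42 SE, adjusted p = 0.000301, edgeR). Its highest epithelial value was in epithelium 1, the epithelial library with the most mesenchymal marker RNA. Without that library the log2 difference was -4.15, and the part of that RNA was not tested. Celsr3 was 4.85-fold higher in treated intestine than in epithelium (log2 difference 2.28 ± 0.38 SE, adjusted p = 0.000643, edgeR). Against mesenchyme it was lower by a log2 difference of -1.24 ± 0.36 (SE, adjusted p = 0.0214, edgeR). That call ended under 7 of 14 alternatives, among them leaving out mesenchyme 1 (-0.99, adjusted p = 0.0601) or cyclopamine 2 (-1.02, adjusted p = 0.0971). The 8 markers of enteric neural crest and neurons summed to 820 to 911 CPM in treated intestine, 36.5 to 78.4 in epithelium and 910 to 1215 in mesenchyme, and their part in the Celsr3 difference was not tested.

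Celsr1 and Celsr2 varied widely between libraries of a group. Celsr1 had 13.7, 8.48 and 19.96 CPM in treated intestine, 11.0, 5.71 and 6.54 CPM in epithelium, and 23.0, 10.6 and 13.2 CPM in mesenchyme. Epithelium 1 lay above mesenchyme 2, so the layers overlapped, and treated intestine overlapped both. Celsr1 was lower in epithelium than in mesenchyme by a log2 difference of -1.06 ± 0.38 (SE, adjusted p = 0.0416, edgeR), but the call ended or turned under 9 of 13 alternatives. Its log2 difference between treated intestine and mesenchyme was -0.09 ± 0.39 (SE, adjusted p = 0.868, edgeR), and the sign turned without mesenchyme 1 (0.27) or cyclopamine 2 (0.17). Between treated intestine and epithelium it was 0.86 ± 0.39 (SE, adjusted p = 0.0793, edgeR).

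Celsr2 had 30.0, 18.3 and 29.9 CPM in treated intestine, 36.3, 37.6 and 51.4 CPM in epithelium, and 101, 28.3 and 44.8 CPM in mesenchyme. Mesenchyme 1 was far above the other two mesenchyme libraries, which overlapped epithelium, and all treated libraries were below all epithelial ones. None of its 3 comparisons passed the test. The log2 difference between epithelium and mesenchyme was -0.54 ± 0.45 (SE, adjusted p = 0.320, edgeR), and 0.13 without mesenchyme 1. Between treated intestine and mesenchyme it was -1.12 ± 0.41 (SE, adjusted p = 0.0552, edgeR), and it passed in 3 of 14 alternatives. It was -0.45 without mesenchyme 1 (adjusted p = 0.197, edgeR) and -0.18 with the length and GC trends removed (adjusted p = 0.492, edgeR). Between treated intestine and epithelium it was -0.68 ± 0.41 (SE, adjusted p = 0.175, edgeR).

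Prickle1 encodes a LIM-domain protein that binds Vangl inside the cell. It had 36.4, 33.7 and 35.0 CPM in treated intestine, 11.4, 7.63 and 15.1 CPM in epithelium, and 84.7, 57.6 and 74.2 CPM in mesenchyme. The treated libraries lay close together and between the layers, with no overlap. Prickle1 was 6.74-fold lower in epithelium than in mesenchyme (log2 difference -2.75 ± 0.29 SE, adjusted p = 0.000201, edgeR). It was 2.05-fold lower in treated intestine than in mesenchyme (log2 difference -1.04 ± 0.23 SE, adjusted p = 0.0066, edgeR) and 3.08-fold higher than in epithelium (adjusted p = 0.000282, edgeR). All these Prickle1 calls held in every alternative that was run.

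The Dvl genes encode the Dishevelled proteins, cytoplasmic relays that serve both beta-catenin and planar polarity signalling. Dvl1 had 59.4, 59.3 and 56.0 CPM in treated intestine, 156, 156 and 162 CPM in epithelium, and 95.1, 130.1 and 101 CPM in mesenchyme. The epithelium was highest and treated intestine lowest, with no overlap. Dvl1 was 1.37-fold higher in epithelium than in mesenchyme (log2 difference 0.45 ± 0.15 SE, adjusted p = 0.0333, edgeR), which ended without any 1 of the epithelium libraries or without mesenchyme 3 (adjusted p 0.0593 to 0.0748) and with the replicate number as a block (adjusted p = 0.0533). It was 1.87-fold lower in treated intestine than in mesenchyme (log2 difference -0.90 ± 0.13 SE, adjusted p = 0.000669, edgeR) and 2.71-fold lower than in epithelium (log2 difference -1.44 ± 0.13 SE, adjusted p = 2.03e-05, edgeR).

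Dvl2 had 50.8, 52.3 and 45.2 CPM in treated intestine, 74.3, 78.4 and 79.2 CPM in epithelium, and 78.1, 76.7 and 66.6 CPM in mesenchyme. The layers overlapped, and treated intestine was below both. The log2 difference between epithelium and mesenchyme was -0.02 ± 0.13 (SE, adjusted p = 0.894, edgeR). With all 9 libraries in the fit, whose scaling the CPM use, it was 0.07. In treated intestine Dvl2 was 1.49-fold lower than in mesenchyme (log2 difference -0.58 ± 0.11 SE, adjusted p = 0.00347, edgeR) and 1.56-fold lower than in epithelium (log2 difference -0.65 ± 0.11 SE, adjusted p = 0.00081, edgeR).

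Dvl3 had 43.1, 25.8 and 50.5 CPM in treated intestine, 65.4, 55.6 and 61.2 CPM in epithelium, and 135, 67.3 and 72.4 CPM in mesenchyme. Mesenchyme 1 was again far above its group and cyclopamine 2 far below its own, though no groups overlapped. Dvl3 was 2.27-fold lower in treated intestine than in mesenchyme (log2 difference -1.19 ± 0.30 SE, adjusted p = 0.0124, edgeR), or -0.78 without mesenchyme 1 (adjusted p = 0.0264), and the call ended without cyclopamine 2 (-0.95, adjusted p = 0.0552). Its differences between epithelium and mesenchyme (-0.67 ± 0.28 SE, adjusted p = 0.0701, edgeR) and between treated intestine and epithelium (-0.61 ± 0.30 SE, adjusted p = 0.104, edgeR) did not pass.

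Scrib encodes a scaffold with leucine-rich repeats and PDZ domains, which binds Vangl2 and also belongs to the machinery of apical and basal polarity in epithelia. It had 76.7, 74.0 and 80.9 CPM in treated intestine, 259, 264 and 289.8 CPM in epithelium, and 135, 128 and 139 CPM in mesenchyme. The 3 groups lay far apart against their spread, with treated intestine below both layers. Scrib was 1.90-fold higher in epithelium than in mesenchyme (log2 difference 0.93 ± 0.12 SE, adjusted p = 0.000567, edgeR). In treated intestine it was 1.73-fold lower than in mesenchyme (log2 difference -0.79 ± 0.10 SE, adjusted p = 0.000349, edgeR) and 3.51-fold lower than in epithelium (log2 difference -1.81 ± 0.10 SE, adjusted p = 4.38e-06, edgeR).

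Scrib, Dvl1 and Dvl2 were lower in treated intestine than in both layers, each comparison past the test. Of all genes tested, 7.53% were lower than in both layers and 3.52% were higher, against 3 and 0 of the 10 members. Both comparisons use the same 3 treated libraries. The same 3 genes were called when any single library was left out. The count was 1 of 10, Dvl1, once the trends of level over transcript length and GC content were removed.

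Those trends were fitted to each library against the mean of all libraries in the fit. Removing them therefore also takes out group differences that run along length or GC content. Genes were ordered by transcript length into 6 classes of equal number. Between epithelium and mesenchyme the median log2 difference was 0.43 in the shortest class and -0.35 in the longest. Between treated intestine and mesenchyme it was 0.26 and -0.27. Within the treated and mesenchyme groups the libraries also differed along length, each set against the other 2 of its group. The median log2 deviation in the shortest class was -0.46 for mesenchyme 1 and 0.36 for mesenchyme 2, and in the longest class it was 0.28 and -0.34. Cyclopamine 2 had 0.20 in the shortest class and -0.24 in the longest, whereas the epithelium libraries stayed within -0.05 and 0.03 in all classes. Of the members, 6 of 10 fell in the longest class, with transcripts from 5599 bases (Scrib) to 11547 bases (Celsr3). Mesenchyme 1 was above the rest of its group for 9 of 10 members, led by Celsr2 (log2 deviation 1.48), Dvl3 (0.94) and Celsr1 (0.90). Cyclopamine 2 was below the rest of its group for 8 of 10, led by Celsr1 (-0.89) and Dvl3 (-0.83). Dvl3, at 2519 bases, was in class 3 of the 6. The medians of that class were -0.14 for mesenchyme 1 and 0.05 for cyclopamine 2, opposite in sign to the Dvl3 deviations. The share of all genes that deviated in these directions is not given here.

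**Figure D3:**
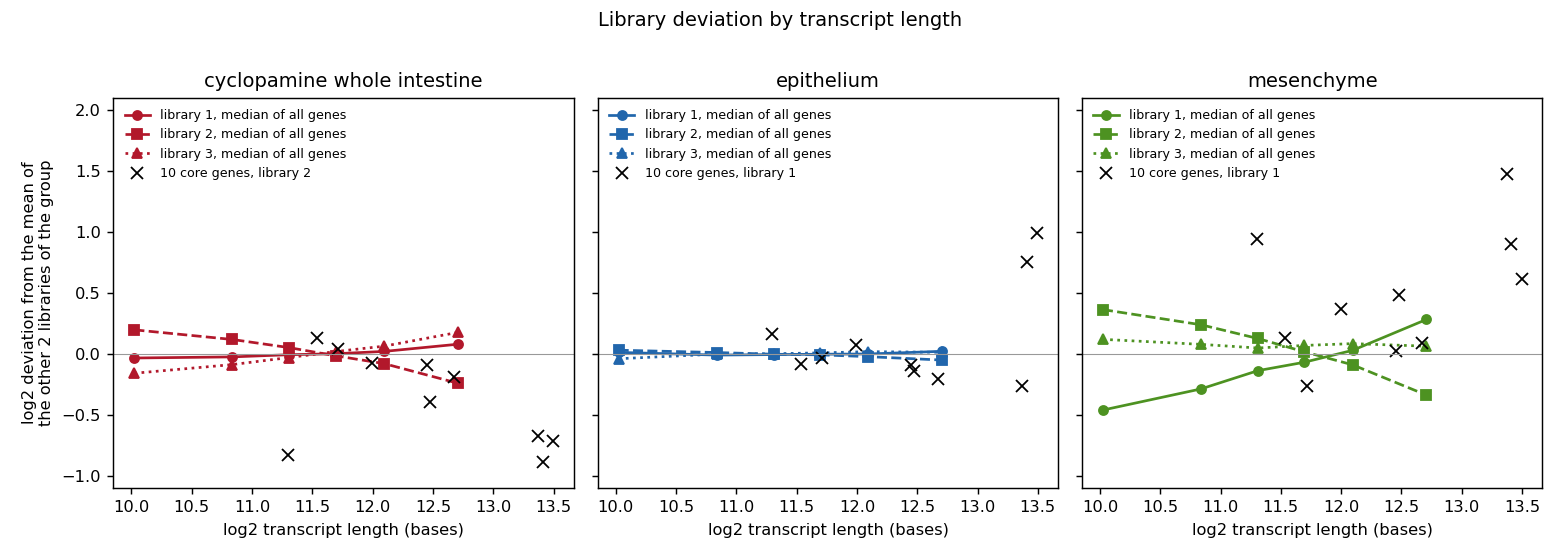
Median log2 deviation of each library from the mean of the other 2 libraries of its group (y axis) by transcript length class (x axis, log2 bases), with crosses for the 10 core genes in 1 library of each panel. Mesenchyme 1 climbs to 0.28 in the longest class and cyclopamine 2 drops to -0.24, while the epithelium libraries lie near 0.

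Along GC content, the differences of treated intestine from each layer also moved. The top class of 6 by GC content held 7 of the members, Celsr1, Celsr2, Celsr3, Scrib and the 3 Dvl genes. The median log2 difference of all genes in that class was -0.29 between treated intestine and mesenchyme, against 0.24 in the class of lowest GC content. Between treated intestine and epithelium the medians of these classes were -0.18 and 0.25. Between epithelium and mesenchyme they were -0.09 and 0.006, and the classes did not run in order. With both trends removed, an alternative chosen after seeing the data, 2 members instead of 8 were lower in treated intestine than in mesenchyme, Prickle1 (-0.86, adjusted p = 0.0066, edgeR) and Dvl1 (-0.46, adjusted p = 0.0337, edgeR). Scrib then had -0.17 (adjusted p = 0.318, edgeR) and Dvl2 -0.22 (adjusted p = 0.0824, edgeR).

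Between epithelium and mesenchyme the same step left Vangl1 at -0.92, Celsr3 at -2.58 and Prickle1 at -2.44, all still past the test in edgeR. Scrib stood at 1.82 and Dvl1 at 1.01, both farther from 0 than without the step. Celsr2 turned to 0.62 (adjusted p = 0.0358, edgeR) and Dvl2 to 0.31 (adjusted p = 0.0297, edgeR), while Vangl2 no longer passed (-0.28, adjusted p = 0.0589, edgeR). Between treated intestine and epithelium all 6 calls remained, Vangl1 at 0.63, Celsr3 at 2.13, Prickle1 at 1.54, Scrib at -2.03, Dvl1 at -1.51 and Dvl2 at -0.58. Celsr2 joined the lower ones (-0.81, adjusted p = 0.00518, edgeR), which made 4.

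Divided by transcript length, the relays and the scaffold were the most abundant members. In treated intestine Dvl1 led at 17.3 ± 0.57 CPM per kb, with Dvl2 (16.7 ± 1.27), Dvl3 (15.8 ± 5.05) and Scrib (13.8 ± 0.62; SD, n = 3 each), neighbours whose ranges overlapped. In epithelium Scrib (48.4 ± 2.97) and Dvl1 (47.0 ± 1.16) overlapped at the top and stood clear of Dvl2 (26.0 ± 0.88; SD, n = 3 each). In mesenchyme Dvl3 (36.4 ± 14.98) overlapped Dvl1 (32.3 ± 5.60), and Dvl2 (24.9 ± 2.11) overlapped Scrib (23.9 ± 1.05; SD, n = 3 each). Prickle1 was at rank 5 in treated intestine and in mesenchyme, without overlap with its neighbours, and at rank 7 in epithelium. The lowest was Celsr1 in treated intestine (1.29 ± 0.53) and in mesenchyme (1.44 ± 0.60), and Celsr3 in epithelium (0.369 ± 0.196; SD, n = 3 each).

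The shares of the paralogs within each family are given as a description, with no test. Of the Celsr level per transcript length, Celsr2 held 44.7% ± 2.4 in treated intestine, 78.3% ± 9.0 in epithelium and 46.2% ± 8.1 in mesenchyme (SD, n = 3). Celsr3 held 32.6% ± 1.5 in treated intestine, 7.41% ± 3.88 in epithelium and 40.7% ± 7.2 in mesenchyme. Vangl2 was the larger part of the Vangl level in all 3 groups, 61.2% ± 3.2 in treated intestine, 73.4% ± 0.91 in epithelium and 64.7% ± 3.6 in mesenchyme. Dvl1 held 35.0% ± 3.4 of the Dvl level in treated intestine, 48.4% ± 0.69 in epithelium and 35.2% ± 8.3 in mesenchyme.

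Ratios of counts within a library need no scaling for depth. The log2 ratio of Vangl1 to Vangl2 was -0.38, -0.32 and -0.68 in treated intestine, -1.32, -1.19 and -1.29 in epithelium, and -0.94, -0.54 and -0.55 in mesenchyme. Epithelium was below the other 2 groups without overlap. The Dvl1 to Dvl2 ratio was 0.23, 0.18 and 0.31 in treated intestine, 1.07, 0.99 and 1.04 in epithelium, and 0.28, 0.76 and 0.59 in mesenchyme, so epithelium was above both. The Celsr1 to Celsr2 ratio was -1.13, -1.11 and -0.58 in treated intestine, -1.72, -2.71 and -2.97 in epithelium, and -2.12, -1.41 and -1.76 in mesenchyme, and treated intestine was above both. The Dvl3 to Dvl2 ratio was -0.24, -1.02 and 0.16 in treated intestine, -0.18, -0.50 and -0.37 in epithelium, and 0.79, -0.19 and 0.12 in mesenchyme, with all 3 groups overlapping. The exact two-sided permutation test of 3 against 3 cannot go below p = 0.1, which the 6 comparisons without overlap reached, and their adjusted p over the 12 comparisons was 0.2.

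**Figure D4:**
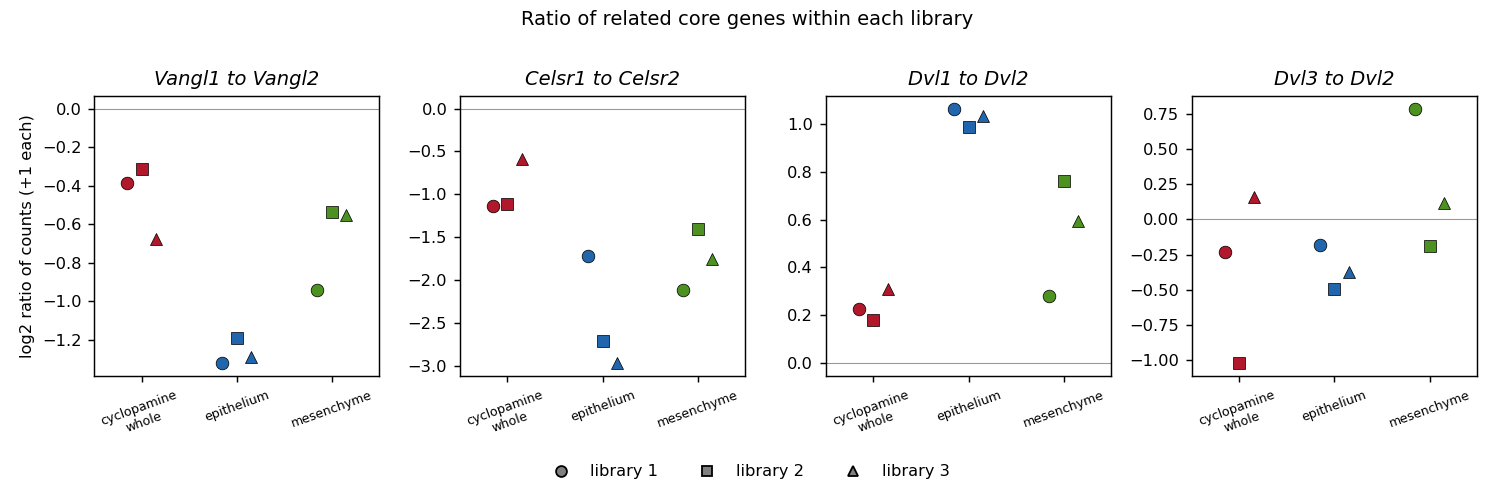
Log2 ratio of counts of related core genes within each library (y axis) by group, with symbols for library number, for Vangl1 to Vangl2, Celsr1 to Celsr2, Dvl1 to Dvl2 and Dvl3 to Dvl2. Epithelium lies lowest for Vangl1 to Vangl2 (-1.32 to -1.19) and highest for Dvl1 to Dvl2 (0.99 to 1.07).

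The genes whose log2(CPM + 1) followed a member most closely over the 9 libraries were chosen by Pearson's r among 15689 genes, and the 9 points share 3 groups. For Scrib these were Brpf1 and Luc7l (r = 0.9988 for both), and for Celsr3 Ptprb (0.9984) and Slit3 (0.9967). For Prickle1 they were Dach1 (0.9942) and Cers4 (0.9934), for Vangl1 Slc35f1 (0.9964) and Cdk19 (0.9924), and for Vangl2 Simc1 (0.9931) and Peg3os (0.98). For Dvl1 they were Sppl2b (0.9951) and Polrmt (0.9948), for Dvl2 Gm20605 (0.9955) and Lrch4 (0.9925), and for Dvl3 Kmt2a (0.9782) and Maml1 (0.9748). Celsr1 had the lowest values, Lrp2 (0.9556) and Xkr4 (0.9513), and Celsr2 had Patz1 (0.9888) and Gm10789 (0.9844).

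Of 42 other genes of the pathway, 41 were tested, and Dchs2 was not analysed here. In epithelium against mesenchyme 4 were higher and 25 lower, with a median log2 difference of -0.56, where 29.3% of all genes were higher and 33.4% lower. In treated intestine against mesenchyme 2 were higher and 13 lower (median -0.32), where all genes gave 20.8% and 20.5%. Against epithelium 21 were higher and 8 lower (median 0.44), where all genes gave 32.1% and 29.8%. With length and GC trends removed, 11 were higher and 21 lower in epithelium than in mesenchyme, and 4 were higher and 10 lower in treated intestine than in mesenchyme. The 13 lower were 8 without cyclopamine 1 and 7 without cyclopamine 2, the 2 higher were 4 without mesenchyme 1, and the 8 below epithelium were 5 without any 1 of the epithelium or treated libraries. Members of these groups called lower or higher below passed an adjusted p of 0.05 in edgeR, and values are log2 differences. All 4 noncanonical Wnt ligands were lower in epithelium than in mesenchyme: Wnt5a (-4.57 ± 0.75 SE), Wnt11 (-3.52 ± 0.60), Wnt4 (-3.37 ± 0.56) and Wnt5b (-3.21 ± 0.32). Wnt5a, the ligand best known in gut elongation, had 86.7, 80.5 and 76.8 CPM in treated intestine, 15.2, 4.54 and 1.86 CPM in epithelium, and 191, 111 and 184 CPM in mesenchyme. Epithelium 1, the epithelial library with the most mesenchymal marker RNA, had the highest epithelial value, and the part of that RNA in it was not tested. Against mesenchyme, treated intestine had less Wnt4 (-1.54 ± 0.44 SE, adjusted p = 0.0194, edgeR), while Wnt5a did not pass (-0.99 ± 0.55 SE, adjusted p = 0.172, edgeR).

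Among the 7 receptors and co-receptors, 5 were lower in epithelium than in mesenchyme, led by Ror1 (-5.31 ± 0.51 SE), Fzd3 (-2.29 ± 0.30) and Gpc4 (-2.16 ± 0.17). Over all genes tested, 33.4% were lower there. In treated intestine against mesenchyme, Ptk7 (-0.87 ± 0.16 SE), the Wnt5a receptor Ror2 (-0.63 ± 0.17) and Gpc4 (-0.45 ± 0.14) were lower and Fzd6 was higher (0.65 ± 0.18). The further cytoplasmic factors Prickle2 (-4.78 ± 0.65 SE), Dact1 (-4.27 ± 0.42) and Ankrd6 (-2.19 ± 0.19) were lower in epithelium. Between treated intestine and mesenchyme 0 of the 5 genes of this role passed, where 41.2% of all genes passed in either direction. Of the Fat and Dachsous module, the large cadherin genes Fat4 (-6.03 ± 0.87 SE) and Dchs1 (-5.18 ± 0.94) were lower in epithelium. Fjx1, which is not a cadherin gene, was lower too (-0.53 ± 0.18 SE). In treated intestine Fat4 (-2.40 ± 0.62 SE) and Fat1 (-1.22 ± 0.33) were lower than in mesenchyme. Both transcripts are long, at 16109 and 14627 bases, and mesenchyme 1 was the highest mesenchyme library for each. Fat4 had 671, 276 and 444 CPM in mesenchyme. Fat1 had 748, 282 and 397 CPM there, and 226, 141 and 242 CPM in treated intestine. Ror1, Gpc4, Prickle2, Dact1, Fat4 and Dchs1 had their highest epithelial value in epithelium 1, while Fzd3, Ankrd6 and Fjx1 did not. The part of mesenchymal RNA in these values was not tested.

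The effectors were called in both directions between epithelium and mesenchyme, where 29.3% of all genes were higher and 33.4% lower. Of the 4 ciliogenesis and planar polarity effectors, Intu was higher in epithelium than in mesenchyme (0.63 ± 0.19 SE), and Wdpcp (-1.50 ± 0.23) and Fuz (-1.02 ± 0.15) were lower. Fuz was also lower in treated intestine than in mesenchyme (-0.66 ± 0.14 SE). Of the 8 cytoskeletal effectors, Daam2, a formin that binds Dishevelled, was lower in epithelium (-4.42 ± 0.44 SE) and in treated intestine (-1.79 ± 0.34 SE) than in mesenchyme, as was Daam1 (-1.16 ± 0.13 and -0.36 ± 0.11). The myosin-activating kinase gene Rock2 was higher in epithelium (0.89 ± 0.13 SE), and Mapk9 (-0.53 ± 0.13) and Mapk8 (-0.49 ± 0.13) were lower.

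Among the 6 genes of trafficking, kinases and turnover, Smurf1 (-1.23 ± 0.13 SE), Csnk1e (-1.06 ± 0.14) and Smurf2 (-0.49 ± 0.13) were lower in epithelium and Arfrp1 was higher (0.47 ± 0.14). Sec24b, a coat protein that carries Vangl2 out of the endoplasmic reticulum, was lower in treated intestine than in mesenchyme (-0.82 ± 0.17 SE, adjusted p = 0.00507, edgeR) and than in epithelium (-1.01 ± 0.17 SE, adjusted p = 0.000743, edgeR). Fat1 also was lower than in both layers, so 2 of these 41 genes were and 0 were higher than in both, where all genes gave 7.53% and 3.52%. Fat1 dropped out when any 1 of the epithelium or treated libraries was left out, and Fzd6 was called higher than in both under several alternatives, among them DESeq2, the replicate block and leaving out cyclopamine 1 or 2. The Scribble partner Llgl2 averaged 42.5 CPM in treated intestine, 182 in epithelium and 6.68 in mesenchyme, whereas Llgl1 was lower in epithelium than in mesenchyme (-0.77 ± 0.12 SE). Dlg1, the third partner, did not pass in any comparison.

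**Figure D5:**
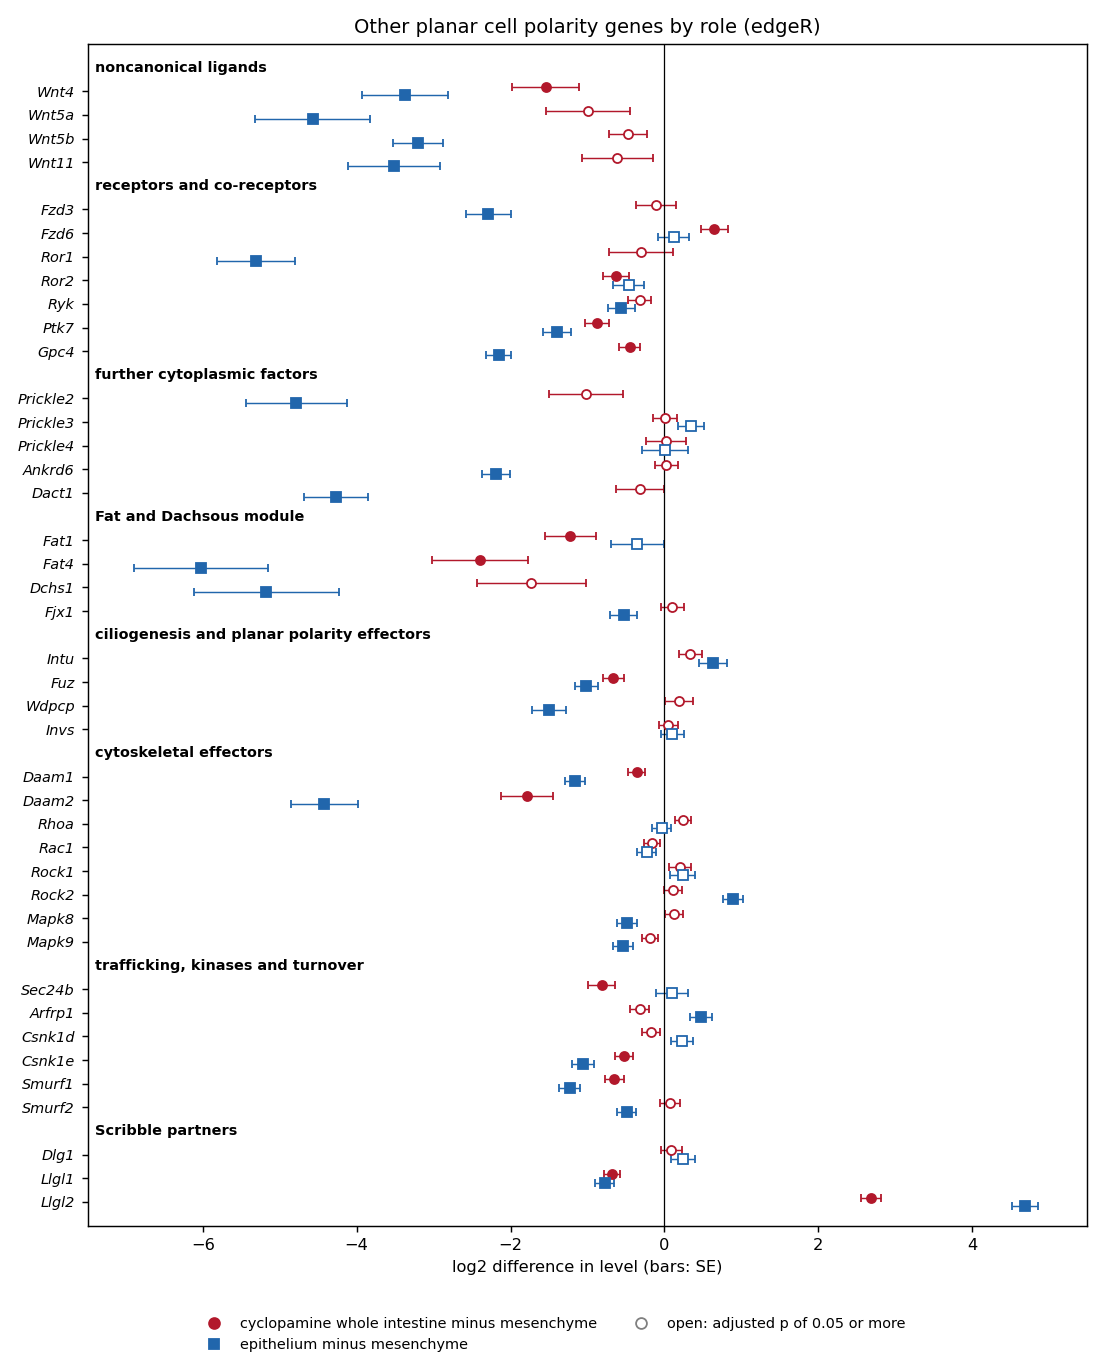
Log2 difference in level with its SE for the other planar cell polarity genes, grouped by role, for treated intestine minus mesenchyme and epithelium minus mesenchyme. Open symbols mark an adjusted p of 0.05 or more, and the values run from -6.03 for Fat4 to 4.69 for Llgl2, both between epithelium and mesenchyme.

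In the authors' deposited table, for which the submitters' notes name DESeq, fewer members passed an adjusted p of 0.05. Between the layers these were Vangl1, Celsr3, Scrib and Prickle1, with deposited folds of mesenchyme over epithelium of 2.44, 11.95, 0.508 and 6.55 in the authors' deposited table. For treated intestine over mesenchyme the authors' deposited table called Dvl1 (0.523, adjusted p = 8.55e-05), Scrib (0.561, adjusted p = 0.00109), Prickle1 (0.471, adjusted p = 0.00653) and Dvl2 (0.651, adjusted p = 0.0475). Celsr3 (0.405, adjusted p = 0.106) and Dvl3 (0.42, adjusted p = 0.194) were not called in the authors' deposited table.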

How the data were processed

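RNA was measured by sequencing in 9 libraries, 3 per group, and grouped by the labels' titles. The submitters' processing notes name TopHat2 2.0.13 as aligner, mm9 as build, and DESeq. How reads were counted, with or without strand and on which annotation, is not given in the sources used here. Members that overlap another gene are therefore uncertain: Scrib (Mir6952) and Dvl1 (Tas1r3), whose partners are in the count table, and Vangl1, Celsr2, Celsr3 and Dvl3, which overlap a long noncoding RNA each. Read counts were deposited as whole numbers under 24016 RefSeq identifiers. Per the file headers, the deposited tables also hold group means (a signal, counts over size factors), their ratio or fold, and p-values.

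From the deposited counts, differences were fitted with edgeR 4.0.16 (R 4.3.3) after TMM scaling. Genes passed filterByExpr at 10 counts, the quasi-likelihood F test was two-sided, and calls were made at a Benjamini-Hochberg adjusted p of 0.05. The layer comparison used 6 libraries, and the cyclopamine comparisons used all 9. An SE is the log2 difference over the square root of F. DESeq2 1.42.0 was an alternative. The fits were also run on simulated counts with known folds in some genes and no trend over length or GC content. Such counts cannot show how the fits handle those trends. Transcript lengths and GC content came from GENCODE M21 for 23459 of the identifiers, and the lowess trends were removed with an offset (span 0.3). Ratios used a pseudocount of 1. Sequences came from RefSeq on GRCm38.p6. Every member was described. Between epithelium and mesenchyme, other pathway genes, chosen with the lists, were named by the largest absolute log2 difference among those called, up to 3 per role. For treated intestine that rule was followed only in part. Against mesenchyme some called genes, such as Smurf1 and Llgl1, were left out, and against epithelium most were only counted. Others were named after their values were seen. The members and lists were chosen with earlier results of these data known. A pair of marker lists is not reported here. Library totals of 9739394 to 26357115 counts set the counting precision, except in mesenchyme 1, where the 3284702 counts outside Rn45s, Lars2 and Mir6236 set it.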

Additional observations from a re-analysis of the deposited data

How the results depend on the processing

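Of 410 member values under alternative settings, 338 kept their direction and side of the threshold, 43 lost the call, 12 gained one and 17 turned sign. Between epithelium and mesenchyme, 2 members were higher and 5 lower. With length and GC trends removed the counts were 4 and 3, and without single libraries 1 to 2 and 3 to 6. In treated intestine against mesenchyme 8 were lower, with 2 after removing the trends, 5 without mesenchyme 1 and cyclopamine 2 together and 4 to 9 without single libraries. The count below both layers was 3, or 1 with the trends removed, 4 with the replicate block, 4 without mesenchyme 1 and cyclopamine 2, and 3 to 3 without single libraries. Against epithelium, single removals gave 3 to 4 higher and 3 to 3 lower.

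Signs turned in these cases. For Dvl2 between the layers (-0.02) they turned with no filter (0.0161), DESeq2 (0.0358), trends removed (0.3136), all 9 libraries (0.0688) and 5 of the 6 single removals. The single removals ranged from -0.0346, which kept the sign without mesenchyme 3, to 0.064. With trends removed, Celsr1 (0.0307) and Celsr2 (0.616) turned between the layers, Celsr1 against mesenchyme (0.7269) and Vangl2 against epithelium (-0.0827). Without mesenchyme 1, Celsr2 between the layers was 0.1299 (single removals from -0.8186), and Celsr1 in treated intestine against mesenchyme was 0.2683 (single removals from -0.4199). That Celsr1 value was 0.171 without cyclopamine 2 and 0.4948 without both. The Dvl3 to Dvl2 ratio between treated intestine and epithelium ranged over -0.28 to 0.31 with single removals. The cause was not tested, and the trend alternative removes differences between libraries and between groups together.

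The replicate block left 1 member higher in epithelium instead of 2. Same-numbered libraries did not deviate together in every pair (r from -0.202 to 0.268). A library correlated best with its own number in 10 of 18 comparisons, each with 3 libraries to choose from. These values do not settle whether the numbers mark pairs. The main fits leave the number out, and the replicate block is given as an alternative. Mesenchyme 1, with 3284702 counts outside 3 abundant RNAs, limits every comparison with mesenchyme.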
